A study of Rattus norvegicus with 18 samples.

Results

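Cigarette smoke changes gene expression in the lung, and the comparison described here asks how that change differed between longer exposure, 7 or 13 weeks, and 2 weeks. It uses all 18 samples of the series, 12 at the later weeks and 6 at 2 weeks. Each sample is a log2 ratio of whole lung RNA from a pool of 4 smoke-exposed rats over whole lung RNA from a pool of 4 rats kept in fresh air. The samples were chosen by the weeks in their titles. The 2 doses were averaged within each combination of weeks and hours, which left 9 values per gene, 6 at the later weeks and 3 at 2 weeks.

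The later groups were rats exposed for 7 weeks and rats exposed for 13 weeks, and the other group was exposed for 2 weeks. Within each duration, smoke at 300 µg (low dose) or 600 µg (high dose) total particulate matter per litre was breathed through the nose alone, for 1 h 2 times a day on 5 days a week. Lungs were taken at 3 times after exposure ended, 2, 6 or 20 h. Each air control pool belonged to 1 combination of weeks and hours and served both doses, so there were 9 control pools. Rat strain, sex and age are not given in the labels used here.

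Smoke inhaled over weeks brings neutrophils and macrophages into the lung, and resident macrophages take up particles and store them in lysosomes. Neutrophils carry the calcium-binding pair S100a8 and S100a9, known together as calprotectin, and phagocytes make superoxide with a membrane NADPH oxidase. The lung also answers smoke within hours by inducing detoxifying enzymes through the aryl hydrocarbon receptor (AhR) and the stress-response factor NRF2. The lists and genes below follow these roles.

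A value of 0 means that smoke and air lungs had the same signal, and a difference between durations is a difference of log2 ratios. It can come from the smoke-exposed pools or from the air pools, which cannot be told apart because each duration had its own air pools. Errors in the form ± SD are over combinations (n = 6 later, n = 3 at 2 weeks), and ± SE comes from limma fits with hours as a covariate. Adjusted p is limma's, with Benjamini-Hochberg adjustment over all genes tested and a threshold of 0.05. No condition was replicated, so the spread behind each p is that between combinations. A gene-specific dye effect that stays constant over arrays cancels in the difference between durations, but not in a ratio against air. No batch is named in the labels, and a batch shared by the arrays of 1 duration, or the age of the rats, cannot be told apart from the weeks of exposure. Sample medians lay between -0.01 and 0.01. The spread of all genes within a combination, as the median absolute deviation, ran from 0.16 to 0.24 at the later weeks and from 0.13 to 0.17 at 2 weeks. Samples had values in 78.8% to 94.7% of the table's positions. The small number of arrays limits precision.

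Of 3971 genes tested, 18 passed the threshold, which is 0.453% of them. The ratio was higher at the later weeks in 17 genes (0.428%) and lower in 1 (0.0252%). Among the rises were S100a9, S100a8, Lcn2, Lgals3, Fcgr2a, Cybb and Cyba, known from phagocytes, the lysosomal genes Hexa and Ctss, and the iron and metal binding genes Ftl1 and Mt1. The lone fall was that of Calcrl, the receptor for the vessel-dilating peptides CGRP and adrenomedullin. The rises ran from 0.41 (Cyba) to 2.05 (S100a9) on the log2 scale. At an unadjusted p under 0.05 there were 379 genes, 211 higher and 168 lower. In 14 of the 18 the later and the 2-week values did not overlap. The 18 were chosen on these same values, so overlap, here and gene by gene below, is a description and no separate support. Among all tested genes, 2.14% had every later value above every 2-week value and 1.44% had every later value below.

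The count depended on single combinations. It was 0 without 2 weeks 2 h, 7 without 2 weeks 6 h and 3 without 2 weeks 20 h. Leaving out a 7-week combination gave 20 (2 h), 11 (6 h) and 10 (20 h) genes, and leaving out a 13-week combination gave 16 (2 h), 14 (6 h) and 6 (20 h). The direction of all 18 was the same in each of the 21 other fits listed in the closing section, which reuse most of the same values. Among these, scaling the samples to a common spread gave 10 genes, quantile normalization 6, the high dose alone 3, the low dose alone 0 (345 at an unadjusted p under 0.05 in limma), and a fit in which the prior variance follows the mean, fitted robustly, 1.

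**Figure D1:**
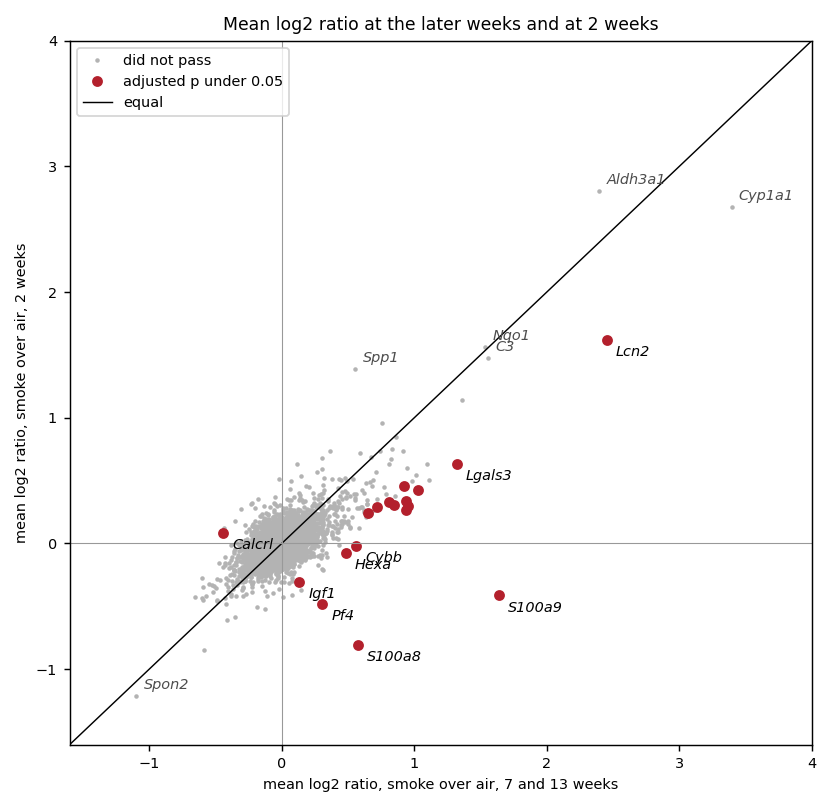
Mean log2 ratio of smoke over air at 7 and 13 weeks (x axis) and at 2 weeks (y axis), 1 point per gene. Red points are the 18 genes with an adjusted p under 0.05, and the black line marks equal means. S100a9, S100a8, Pf4 and Igf1 lie above 0 at the later weeks and below 0 at 2 weeks, while Cyp1a1, Aldh3a1, Nqo1 and C3 lie far from 0 on both axes.

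S100a9 showed the largest difference. Over the 6 later combinations its log2 ratio was lowest at 0.30, with a median of 1.80 and a highest value of 2.41, against -1.42, 0.60 and -0.42 at 2 weeks, given here and below in the order 2, 6 and 20 h. The groups overlapped only through the 6 h value at 2 weeks, which exceeded the 2 h value at 7 weeks, and at each hour both later values lay above the 2-week value of that hour. The mean was 1.64 ± 0.80 at the later weeks and -0.41 ± 1.01 at 2 weeks, a difference of 2.05 ± 0.27 (SE), or 4.14-fold (adjusted p = 0.00557). Of single samples, 11 of 12 were above air at the later weeks and 2 of 6 at 2 weeks.

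S100a8, its partner in calprotectin, ran in parallel at lower ratios. The later combinations had a lowest value of -0.60, a median of 0.58 and a highest value of 1.46, against -1.70, 0.06 and -0.78 at 2 weeks. The values overlapped across hours, and within each hour both later values were again the higher. Its mean was 0.58 ± 0.73 at the later weeks and -0.81 ± 0.88 at 2 weeks, a difference of 1.38 ± 0.21 or 2.60-fold (adjusted p = 0.00959). Set against air, S100a8 was above it at the later weeks (adjusted p = 0.00376) and below it at 2 weeks (adjusted p = 0.0187).

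Lcn2 encodes lipocalin 2, a siderophore-binding protein of neutrophils and stressed epithelium. It had a lowest value of 2.29, a median of 2.37 and a highest value of 2.82 over the later combinations, against 1.48, 1.61 and 1.78 at 2 weeks. Every later value exceeded every 2-week value. The mean was 2.45 ± 0.19 at the later weeks and 1.62 ± 0.15 at 2 weeks, a difference of 0.83 ± 0.12 or 1.78-fold (adjusted p = 0.00767), and all 12 later and all 6 earlier samples were above air.

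From the rises, the promoters of S100a9, Lcn2, Cybb and Mt1 were picked because their windows hold matches to motifs of myeloid, acute phase and metal-response factors. Whether these genes share a regulator was not tested, and the promoters are shown as examples only. They are RefSeq windows from 250 bases before to 50 after the gene's start on the minus strand of assembly GRCr8, chr2:178490573-178490872 for S100a9, chr3:36081731-36082030 for Lcn2, chrX:16065016-16065315 for Cybb and chr19:10832926-10833225 for Mt1. Capitals mark matches to the searched motifs.
S100a9: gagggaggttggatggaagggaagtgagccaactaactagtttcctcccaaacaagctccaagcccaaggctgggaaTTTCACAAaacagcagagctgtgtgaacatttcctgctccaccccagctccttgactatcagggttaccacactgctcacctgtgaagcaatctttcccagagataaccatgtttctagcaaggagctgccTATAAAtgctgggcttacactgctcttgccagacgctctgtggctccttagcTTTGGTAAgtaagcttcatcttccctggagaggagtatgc
Lcn2: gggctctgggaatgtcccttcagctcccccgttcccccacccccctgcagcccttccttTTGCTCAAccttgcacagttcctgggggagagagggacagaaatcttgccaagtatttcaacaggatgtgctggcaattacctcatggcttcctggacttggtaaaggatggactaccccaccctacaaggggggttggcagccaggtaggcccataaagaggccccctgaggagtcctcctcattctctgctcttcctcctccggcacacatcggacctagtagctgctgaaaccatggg
Cybb: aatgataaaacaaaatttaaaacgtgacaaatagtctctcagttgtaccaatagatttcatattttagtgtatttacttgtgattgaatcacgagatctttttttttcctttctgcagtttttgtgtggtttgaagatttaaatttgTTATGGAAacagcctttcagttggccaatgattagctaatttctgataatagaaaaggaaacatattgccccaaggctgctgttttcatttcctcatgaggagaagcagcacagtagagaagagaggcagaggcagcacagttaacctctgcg
Mt1: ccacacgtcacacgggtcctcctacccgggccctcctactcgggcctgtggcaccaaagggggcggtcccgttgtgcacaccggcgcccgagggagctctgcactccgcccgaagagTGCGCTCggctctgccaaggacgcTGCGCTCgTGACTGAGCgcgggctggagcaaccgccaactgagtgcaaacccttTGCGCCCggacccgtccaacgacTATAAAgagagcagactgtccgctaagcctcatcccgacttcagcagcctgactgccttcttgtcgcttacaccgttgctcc

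Of the 18 genes, 12 had a promoter in the RefSeq table. The motif TTNNGNAA, a form bound by the C/EBP factors of myeloid cells and of the acute phase, was searched on both strands and found in 6 of the 12, S100a9, Lcn2, Cybb, Noxo1, Calcrl and Igf1, against 40.8% of all 27457 promoters and 31.4% of the 3231 promoters of tested genes. In S100a9 a match began 173 bases before the start and another 10 bases after it. In Lcn2 it began 191 bases before and in Cybb 103 bases before. The motif GAGGAAGT of the myeloid factor PU.1, on both strands, was found in Bcl2a1 and Ctss. It stood in 2.44% of all promoters and 2.755% of those of tested genes. A form of the core of the metal response element, TGCGCNC on both strands, was found in Mt1, Fcgr2a and Igf1. It stood in 15.02% of all promoters and 26.6% of those of tested genes, and other forms of the core were not searched. Mt1 held it at 133, 109 and 55 bases before the start. The antioxidant response element core TGACNNNGC, on both strands, was found in Mt1 alone among the 12, at 101 bases before the start. It stood in 12.2% of all promoters and 14.9% of those of tested genes. A TATAAA box on the gene's strand stood in S100a9, 42 bases before the start, and in Mt1, 32 bases before. The shares were 9.08% of all promoters and 6.28% of those of tested genes. These matches describe letters in the windows and were not tested against binding. The windows of Pld3 and Cyba held none of the searched motifs.

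**Figure D2:**
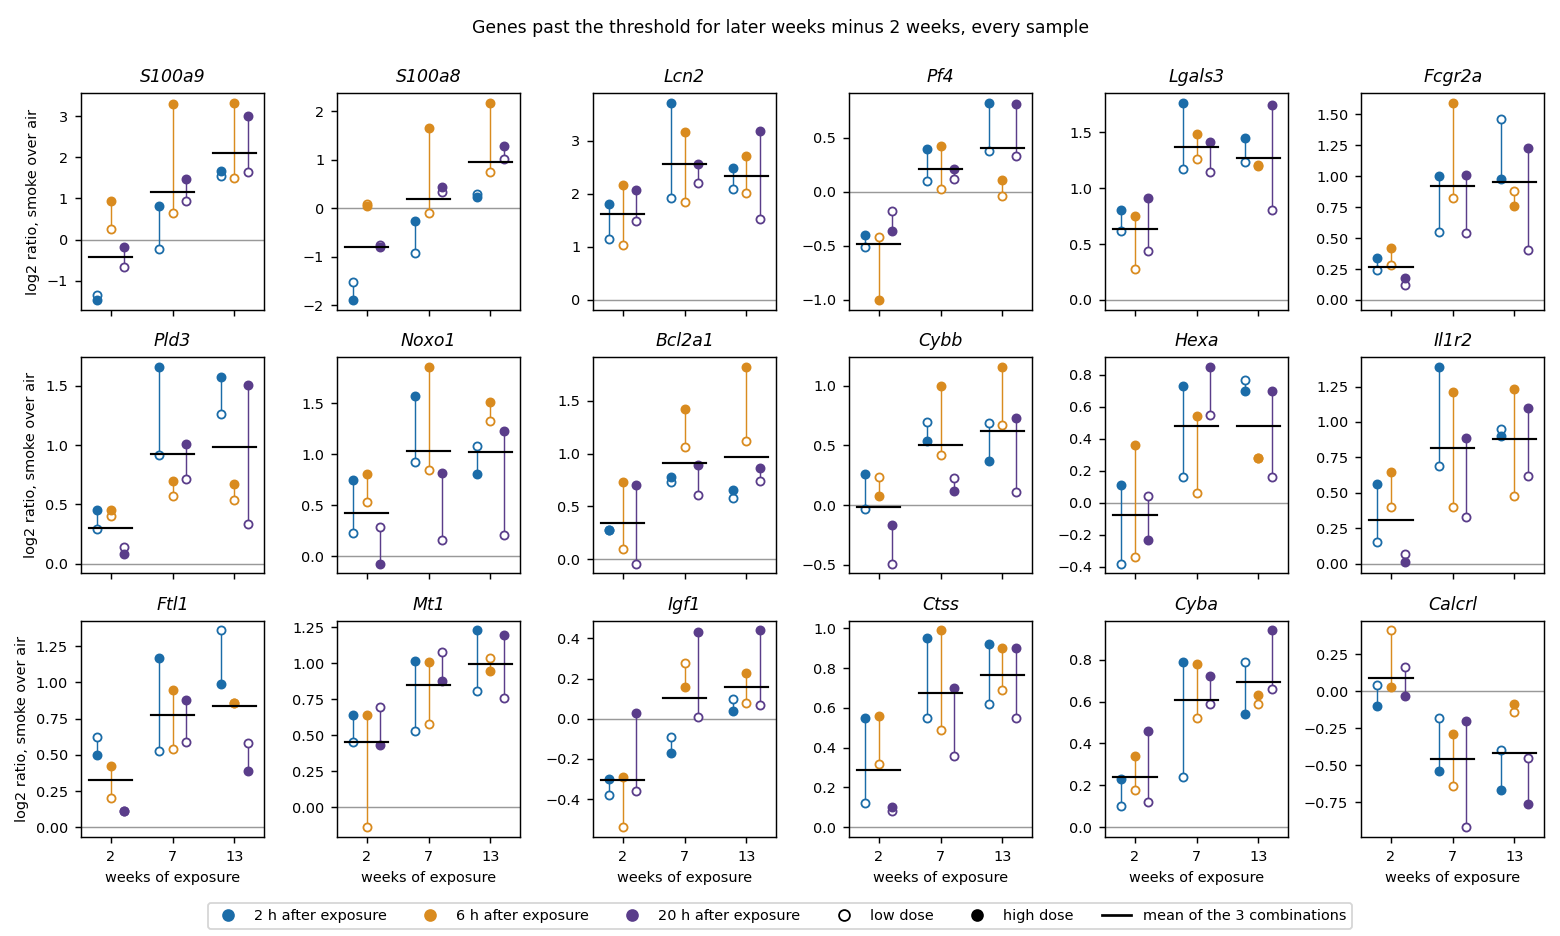
Log2 ratio of smoke over air in every sample (y axis) by weeks of exposure (x axis) for the 18 genes that passed, ordered by difference. Open and filled points are the low and the high dose, joined for each combination, colours are hours after exposure, and black bars are means of the 3 combinations of a duration. The 7- and 13-week bars of S100a9, S100a8 and Pf4 lie above 0 and the 2-week bars below it, while Calcrl shows the opposite order.

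Macrophage and phagocyte genes followed. Lgals3 encodes galectin 3, a sugar-binding protein abundant in macrophages, and had the smallest adjusted p. Its later combinations had a lowest value of 1.21, a median of 1.31 and a highest value of 1.47, against 0.71, 0.52 and 0.68 at 2 weeks. The groups stood well apart, with a gap larger than the range within either. The mean was 1.32 ± 0.09 at the later weeks and 0.63 ± 0.10 at 2 weeks, a difference of 0.69 ± 0.08 or 1.61-fold (adjusted p = 0.00417). Lgals3 stayed past the threshold in 8 of the 9 fits that left out a combination, and S100a9, S100a8, Lcn2 and Pf4 in 7.

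Fcgr2a, a receptor for the Fc part of IgG, had a lowest value of 0.78, a median of 0.82 and a highest value of 1.22 at the later weeks, against 0.29, 0.35 and 0.15 at 2 weeks. All later values were above all 2-week values, and the difference was 0.67 ± 0.11, or 1.59-fold (adjusted p = 0.0154). Bcl2a1, an anti-apoptotic BCL2 relative of myeloid cells, had a lowest value of 0.62, a median of 0.78 and a highest value of 1.47 at the later weeks, against 0.28, 0.42 and 0.33 at 2 weeks. Both 6 h values of Bcl2a1 at the later weeks were its highest. The groups did not overlap, and the difference was 0.60 ± 0.11 (adjusted p = 0.0285). With a combination left out, Fcgr2a stayed past the threshold in 5 of 9 fits and Bcl2a1 in 4.

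The NADPH oxidase was represented by 3 of the 18 genes. Cybb encodes gp91phox, the catalytic subunit of the phagocyte oxidase. It had a lowest value of 0.18, a median of 0.58 and a highest value of 0.92 at the later weeks, against 0.12, 0.16 and -0.33 at 2 weeks. Its mean stood at 0.56 ± 0.25 at the later weeks and at -0.02 ± 0.27 at 2 weeks, a difference of 0.58 ± 0.09 (adjusted p = 0.011). The ratio at 2 weeks was thus near that of air, and the 2 sets did not overlap, although the lowest later value, 0.18 at 7 weeks 20 h, lay close to the highest at 2 weeks.

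Cyba encodes p22phox, the membrane partner of gp91phox. It had a lowest value of 0.52, a median of 0.65 and a highest value of 0.80 at the later weeks, against 0.17, 0.26 and 0.29 at 2 weeks. The groups were apart by 0.41 ± 0.08 (adjusted p = 0.0439). Noxo1 encodes an organiser of the related oxidase NOX1. It had a lowest value of 0.49, a median of 1.10 and a highest value of 1.42 at the later weeks, against 0.49, 0.67 and 0.11 at 2 weeks, and both its 20 h values at the later weeks were the lowest of the 6. The groups overlapped, since the 6 h value at 2 weeks exceeded the 20 h value at 7 weeks. The difference was 0.61 ± 0.09 (adjusted p = 0.011). With a combination left out, Cybb stayed past the threshold in 6 of 9 fits and Noxo1 in 5. Of 7 oxidase genes tested, a set picked after their values were seen, the other 4 did not pass. Rac2, a GTPase of the phagocyte complex, differed by 0.29 ± 0.11, Ncf4, the p40phox subunit, by 0.15 ± 0.09, Duox2, a related oxidase of epithelium, by 0.07 ± 0.12 (1 combination at 2 weeks had no value), and Rac1, a broadly expressed GTPase, by 0.01 ± 0.08.

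Of enzymes that work in the lysosome, Hexa, Ctss and Pld3 rose. Hexa, the alpha subunit of the hexosaminidase that degrades gangliosides, had a lowest value of 0.28, a median of 0.44 and a highest value of 0.74 at the later weeks, against -0.14, 0.01 and -0.10 at 2 weeks. It was near air level at 2 weeks and above it in all 12 later samples, with a difference of 0.56 ± 0.11 (adjusted p = 0.0439). Ctss, the cysteine protease cathepsin S of antigen-presenting cells, had a lowest value of 0.53, a median of 0.75 and a highest value of 0.80 at the later weeks, against 0.34, 0.44 and 0.09 at 2 weeks. The groups did not overlap and differed by 0.43 ± 0.08 (adjusted p = 0.0439), but Ctss missed the threshold in all 9 fits that left out a combination.

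Pld3, an endolysosomal nuclease of the phospholipase D family, had a lowest value of 0.61, a median of 0.89 and a highest value of 1.42 at the later weeks, against 0.37, 0.43 and 0.11 at 2 weeks. Its lowest later values were the 6 h values at 7 and 13 weeks, with a within-hour difference of 0.20 at 6 h, against 0.98 at 2 h and 0.78 at 20 h. The groups did not overlap, and the overall difference was 0.65 ± 0.12 (adjusted p = 0.0304). With a combination left out, Pld3 stayed past the threshold in 4 of 9 fits and Hexa in 3.

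Signalling molecules formed a smaller set. Pf4, a chemokine stored in platelets and also called CXCL4, had a lowest value of 0.04, a median of 0.24 and a highest value of 0.60 at the later weeks, against -0.46, -0.71 and -0.27 at 2 weeks. All 6 samples at 2 weeks were below air and 11 of 12 later samples were above it. The mean was 0.31 ± 0.23 at the later weeks and -0.48 ± 0.22 at 2 weeks, a difference of 0.79 ± 0.11 or 1.72-fold (adjusted p = 0.00767). Against air, Pf4 was higher at the later weeks (adjusted p = 0.00401) and lower at 2 weeks (adjusted p = 0.0105).

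Il1r2, the decoy receptor that binds interleukin 1 without signalling, had a lowest value of 0.61, a median of 0.86 and a highest value of 1.04 at the later weeks, against 0.36, 0.53 and 0.04 at 2 weeks. It differed by 0.54 ± 0.10 (adjusted p = 0.0285), with no overlap, and stayed past the threshold in 6 of the 9 fits that left out a combination. Igf1, a growth factor made by macrophages and mesenchymal cells among others, had a lowest value of -0.13, a median of 0.19 and a highest value of 0.26 at the later weeks, against -0.34, -0.42 and -0.17 at 2 weeks. It lay below air at 2 weeks (mean -0.31, adjusted p = 0.0325) and was not distinguishable from air at the later weeks (mean 0.13, adjusted p = 0.0788). The difference of Igf1 was 0.44 ± 0.09 (adjusted p = 0.0439).

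Among metal-binding genes, Ftl1, the light chain of the iron store ferritin, had a lowest value of 0.49, a median of 0.80 and a highest value of 1.18 at the later weeks, against 0.56, 0.31 and 0.11 at 2 weeks. Only the 13-week 20 h value, 0.49, fell within the 2-week range. The difference was 0.48 ± 0.09 (adjusted p = 0.0439). Mt1, the metallothionein that binds zinc and cadmium, had a lowest value of 0.78, a median of 0.98 and a highest value of 1.02 at the later weeks, against 0.55, 0.25 and 0.57 at 2 weeks, with no overlap and a difference of 0.47 ± 0.09 (adjusted p = 0.0439). Cyba, Ftl1, Mt1 and Igf1 each stayed past the threshold in 1 of the 9 fits that left out a combination.

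Calcrl was the lone fall. Over the later combinations it had a lowest value of -0.61, a median of -0.50 and a highest value of -0.12, against -0.03, 0.22 and 0.07 at 2 weeks. All 12 later samples were below air, and 4 of 6 were above it at 2 weeks. The mean was -0.44 ± 0.18 at the later weeks and 0.09 ± 0.13 at 2 weeks, a difference of -0.53 ± 0.10, or 0.695-fold (adjusted p = 0.0304). It stayed past the threshold in 3 of the 9 fits that left out a combination. In the other direction nothing else passed, and among the next genes by unadjusted p with 1 sign at all 3 hours were Zmynd11 at -0.53 ± 0.12 (adjusted p = 0.0873), Cacnb2 at -0.39 ± 0.09 and the laminin-binding integrin Itga6 at -0.45 ± 0.10. The T cell adaptor Lat stood at -0.37 ± 0.09, Cdkn2aip at -0.34 ± 0.08, Runx1t1 at -0.53 ± 0.14 and Pkia at -0.38 ± 0.10. Itga6 and Pkia rest on 8 combinations because 1 later combination had no value. Zmynd11 differed by -0.84 at the low dose and by -0.22 at the high dose. Its low-dose sample at 2 weeks 2 h stood at 1.70, against 0.37 in the high-dose sample of that combination.

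Spp1, which encodes the secreted phosphoprotein osteopontin, had the largest negative difference of all genes tested and did not pass. Its later values were lowest at -0.25, with a median of 0.48 and a highest value of 1.80, against 1.74, 1.27 and 1.17 at 2 weeks. The highest later value, at 13 weeks 2 h, was above all 2-week values, so the groups overlapped. The difference was -0.83 ± 0.22 (adjusted p = 0.179).

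**Figure D3:**
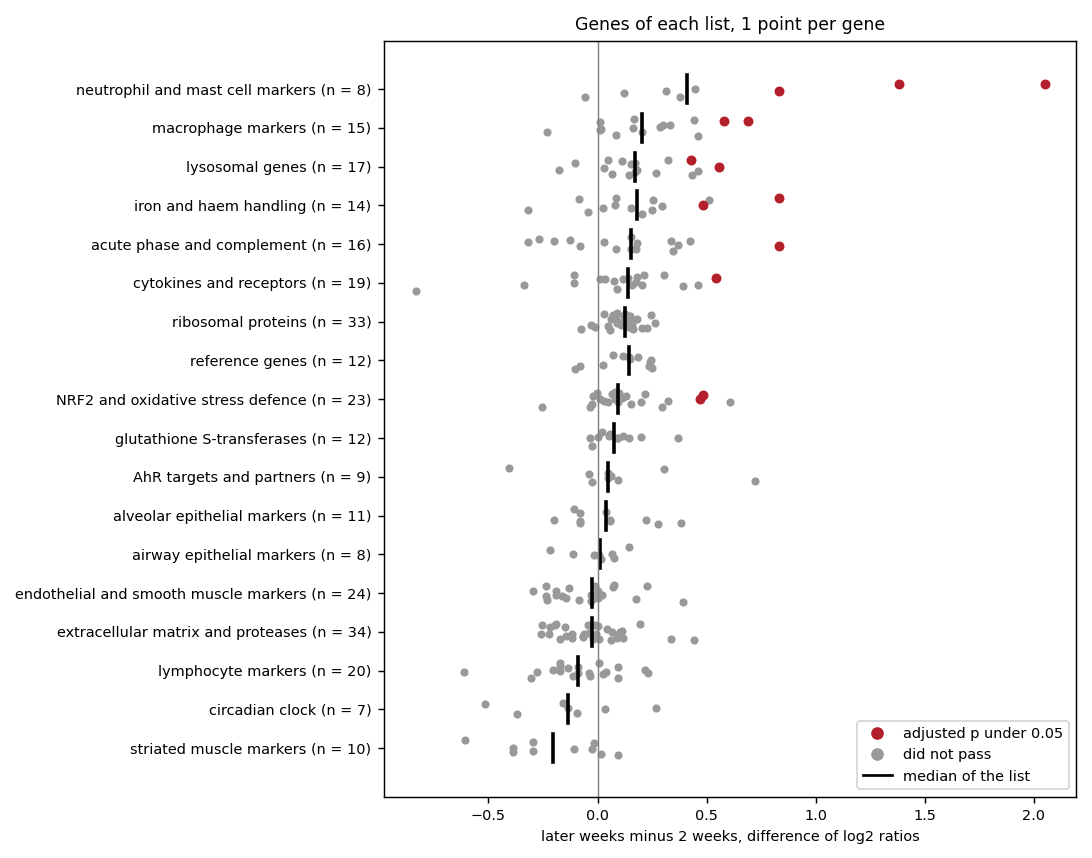
Later weeks minus 2 weeks as a difference of log2 ratios (x axis) for the tested genes of 18 of the 32 lists (y axis), 1 point per gene. Red points passed the threshold and black ticks are list medians, which run from 0.41 for neutrophil and mast cell markers to -0.20 for striated muscle markers.

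By list, the median difference over all tested genes was 0.01 and 52.3% of them were positive. Of 15 macrophage markers, 2 rose (Lgals3 and Cybb) and 14 were positive, with a median of 0.20. The list's median ratio ran from 0.18 to 0.50 over the later combinations and from 0.04 to 0.16 at 2 weeks. Mmp12, the macrophage elastase, stood at 0.44 ± 0.09 (adjusted p = 0.0529) just short of the threshold. Its difference was 0.77 at the high dose and 0.11 at the low dose, and this dependence on dose did not pass (adjusted p = 0.737 in limma). The lysosomal membrane protein Cd68, named after its value was seen, stood at 0.46 ± 0.10 (adjusted p = 0.0604). The exception was Adgre1, which encodes F4/80, at -0.23 ± 0.08, and its ratio was below air in every combination. In whole lung, fewer cells of a type and less RNA per cell cannot be told apart.

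Of 17 lysosomal genes, 2 rose (Hexa and Ctss), 15 were positive and the median was 0.17. Of 8 neutrophil and mast cell markers, 3 rose (S100a9, S100a8 and Lcn2), 7 were positive and the median was 0.41. The other 5 did not pass, and they were, all named after their values were seen, the chemokine receptor Cxcr2 at 0.45 ± 0.14, the mast cell protease Mcpt1 at 0.38 ± 0.15, Retnlg at 0.31 ± 0.16, the myeloperoxidase Mpo at 0.12 ± 0.09 and the ficolin Fcnb at -0.06 ± 0.13. At the later weeks the mean ratios of Retnlg and Fcnb were below air, at -0.19 and -0.34. Those of Cxcr2, Mpo and Mcpt1 were above it, at 0.67, 0.17 and 0.06. Of 14 genes of iron and haem handling, 2 rose (Lcn2 and Ftl1), with a median of 0.18. Of 16 acute phase and complement genes, Lcn2 rose, and of 19 cytokines and receptors, Il1r2 rose, with medians of 0.15 and 0.14. Pf4 was the riser among 12 chemokines and among 4 blood and platelet markers, whose medians were 0.07 and 0.10. Of 18 glucocorticoid-responsive genes, Lcn2 and Mt1 rose, 9 were positive and the median was 0.02.

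Reference genes and ribosomal proteins also leaned upward. Of 33 ribosomal protein genes 30 were positive, with a median of 0.13, and of 12 reference genes 10 were positive, with a median of 0.15, and none of either list passed. Gapdh stood at 0.24 ± 0.09 (adjusted p = 0.43) and B2m at 0.24 ± 0.10. Their part in the smaller rises was not tested.

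Marker lists of other cell types had medians from -0.20 to 0.04, and none of their members passed. Among 20 lymphocyte markers, 13 were negative with a median of -0.09, and Cd3d stood at -0.31 ± 0.11 and Cd5 at -0.61 ± 0.17, fitted on 8 combinations. Among 11 alveolar epithelial markers the median was 0.04, with the surfactant protein gene Sftpd at 0.38 ± 0.11 and the surfactant-processing protease Napsa at 0.28 ± 0.08. The 8 airway epithelial markers had a median of 0.01. Of the 24 endothelial and smooth muscle markers 16 were negative and 8 positive, with a median of -0.02. Among them the vascular growth factor Vegfa stood at -0.30 ± 0.08 and the vasoconstrictor Edn1 at 0.39 ± 0.11. The 10 striated muscle markers, genes of heart and skeletal muscle, had a median of -0.20. Of these, Myh6, fitted on 7 combinations, stood at -0.61 ± 0.16 and Atp2a2 at -0.39 ± 0.19. Within hours Atp2a2 differed by -0.995 at 2 h, 0.40 at 6 h and -0.56 at 20 h. The 8 adipose and mesothelial markers had a median of -0.13, with Pparg at 0.31 ± 0.10 and Gpm6a at -0.31 ± 0.09. Scgb1a1 and Sftpc were not tested here, and log2 ratios give no levels by which the labelled tissue could be checked.

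Some of the genes farthest from air did not differ past the threshold. Cyp1a1, the cytochrome P450 induced through AhR, had a lowest value of 0.00, a median of 3.79 and a highest value of 6.34 at the later weeks, against 4.98, 4.27 and -1.23 at 2 weeks. The 20 h values were the lowest in each duration. Within hours Cyp1a1 differed by 1.14 at 2 h, -0.48 at 6 h and 1.51 at 20 h. Fitted over hours, the difference was 0.72 ± 0.27 (adjusted p = 0.405). Its dependence on hours did not pass (adjusted p = 0.318 in limma's F test). The aldehyde dehydrogenase Aldh3a1 averaged 2.40 ± 2.17 at the later weeks and 2.80 ± 2.81 at 2 weeks, and differed by -0.41 ± 0.13 (adjusted p = 0.256). The quinone reductase Nqo1 averaged 1.54 ± 1.02 at the later weeks and 1.56 ± 1.33 at 2 weeks, and complement C3 averaged 1.56 ± 0.68 at the later weeks and 1.48 ± 0.58 at 2 weeks. Their differences, -0.03 ± 0.09 and 0.08 ± 0.12, changed sign under some alternatives, as did that of the matrix protein Spon2, at 0.12 ± 0.12, and that of the neutrophil attractant Cxcl1, at 0.22 ± 0.10. Of 9 AhR targets and partners none passed, with a median of 0.05, and of 23 NRF2 and oxidative stress genes Ftl1 and Mt1 rose, with a median of 0.10. Among 12 glutathione S-transferases 10 were positive, with a median of 0.07, and among 18 genes of other xenobiotic metabolism 7 were, with a median of -0.03.

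The other lists had no gene past the threshold, apart from Calcrl among 20 vascular peptides and hormones (median 0.00). Among 13 interferon and antigen presentation genes 11 were positive (median 0.14), with RT1-DMb at 0.30 ± 0.10. Among 33 heat shock and unfolded protein response genes 25 were positive (median 0.08), with the chaperone Hspa8 at 0.37 ± 0.08 (adjusted p = 0.0865) and Hspa5 at 0.28 ± 0.09. The medians were 0.04 for 24 cell cycle genes and 0.04 for 32 genes of p53, DNA damage and apoptosis, where the pro-apoptotic Bid stood at 0.41 ± 0.09 (adjusted p = 0.0829). Among 34 extracellular matrix and protease genes 14 were positive (median -0.03). Among 29 genes of Wnt, BMP and TGF-beta signalling 12 were positive (median -0.01), with the Wnt inhibitor Wif1 at -0.33 ± 0.12. Within hours Wif1 differed by 0.09 at 2 h, -0.69 at 6 h and -0.38 at 20 h. Among 7 clock genes 5 were negative (median -0.14), with Nr1d2 at -0.51 ± 0.14. Its within-hour difference was largest at 6 h, at -1.04, against -0.25 at 2 h and at 20 h. The medians were 0.02 for 32 lipid and cholesterol genes, 0.05 for 16 immediate early genes and 0.00 for 36 genes of the mitochondrial respiratory chain.

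When the durations were set apart, 7 weeks minus 2 weeks called 4 of 3950 genes (0.101%) and 13 weeks minus 2 weeks called 7 (0.177%), from the same 2-week values. At 7 weeks these were S100a9 (1.57 ± 0.18, adjusted p = 0.00488), S100a8 (1.00 ± 0.12, adjusted p = 0.00488), Lgals3 (0.74 ± 0.10, adjusted p = 0.00673) and Lcn2 (0.95 ± 0.13, adjusted p = 0.00787). At 13 weeks they were S100a9 (2.53 ± 0.18, adjusted p = 1.38e-05), S100a8 (1.77 ± 0.12, adjusted p = 1.38e-05), Pf4 (0.88 ± 0.12), Lgals3 (0.64 ± 0.10), Cybb (0.64 ± 0.10), and 2 genes named here after their values were seen, the inflammatory cytokine Il1b (0.61 ± 0.10, adjusted p = 0.0334) and the iron carrier Tf (0.65 ± 0.11, adjusted p = 0.0334). At an unadjusted p under 0.05 there were 291 genes at 7 weeks and 295 at 13 weeks. Without 2 weeks 2 h or without 2 weeks 20 h, or without 7 weeks 6 h, the 7-week count was 0. The 13-week count was 2 without 2 weeks 2 h, 2 weeks 20 h or 13 weeks 20 h, and 4 without 7 weeks 6 h or 7 weeks 20 h. It was 11 without 7 weeks 2 h, and the 7-week count was 8 without 13 weeks 2 h or 13 weeks 6 h.

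Between 13 and 7 weeks limma called 0 of 3950 genes, with 107 at an unadjusted p under 0.05. Mean ratios at 13 weeks were above those at 7 weeks in 13 of the 17 rises, a count given without the share over all tested genes. S100a8 differed by 0.77 ± 0.12 (adjusted p = 0.126) and S100a9 by 0.96 ± 0.18 (adjusted p = 0.338), both higher at 13 weeks at each hour. Lcn2 ran the other way at -0.24 ± 0.13, and Lgals3 stood at -0.10 ± 0.10. The count was 1 without 2 weeks 6 h and 2 without 13 weeks 6 h.

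**Figure D4:**
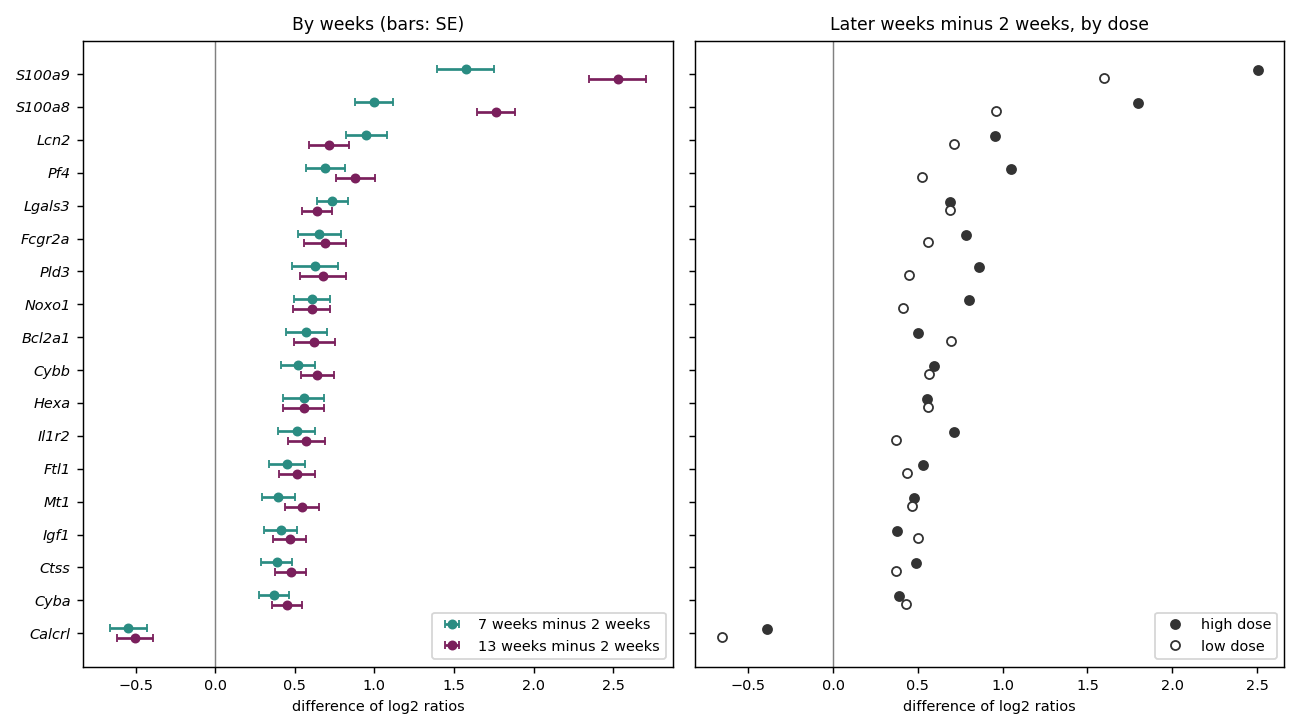
Left, differences of log2 ratios (x axis) of 7 weeks minus 2 weeks and 13 weeks minus 2 weeks for the 18 genes (y axis), with bars of 1 SE. Right, later weeks minus 2 weeks at the high and at the low dose. S100a9 and S100a8 have the widest gap between 13 and 7 weeks.

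Fitted on the high dose alone, limma called 3 genes, S100a9, S100a8 and Pf4, and on the low dose alone it called 0. The 17 rises were chosen on the mean of the doses, which share air pools, so that all were positive at both doses is a description and no separate support. Of the 17, 12 were larger at the high dose, also given without the share over all tested genes. At the high dose S100a9 differed by 2.50 and at the low dose by 1.60. S100a8 differed by 1.80 at the high dose and by 0.96 at the low dose, and Pf4 by 1.05 at the high dose and 0.52 at the low dose. Tested across genes, the dependence of the difference on dose passed for 0 of 3971 genes in limma, with 224 at an unadjusted p under 0.05. It was 0.91 ± 0.27 for S100a9 (adjusted p = 0.727), 0.84 ± 0.23 for S100a8 (adjusted p = 0.673) and 0.53 ± 0.16 for Pf4 (adjusted p = 0.727). Lgals3 differed by 0.69 at each dose. The dose count was 1 without 7 weeks 20 h.

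The dependence on hours since exposure passed for 0 of 3667 genes in limma, with 154 at an unadjusted p under 0.05. Of the 18 genes Pld3 had the smallest unadjusted p, 0.00632 (adjusted p = 0.942). All 17 rises were positive at each of the 3 hours, which the fit that chose them also used. The hours count was 2 without 13 weeks 2 h and 5 with samples scaled to a common spread.

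Set against air, 846 of 3950 genes (21.4%) differed at the later weeks, 464 higher (11.7%) and 382 lower (9.67%), and 120 (3.04%) at 2 weeks, 87 higher (2.2%) and 33 lower (0.835%). The later mean rests on 6 values and the 2-week mean on 3, so the 2 counts do not have the same power. Both tests came from the same fit and shared its residual variance. The 2-week count therefore moved when only a later combination was left out, to 145 without 13 weeks 2 h and 95 without 13 weeks 20 h. With samples scaled to a common spread the counts were 728 at the later weeks and 213 at 2 weeks. A constant dye effect would stand in both tests with the same sign, and with no dye swap named its part was not tested. Of the 120, 107 also differed at the later weeks, which is 89.2% of the 2-week calls and 12.6% of the later ones, and 105 of these had the same sign. This overlap is in part built in, because a small shared residual helps a gene to pass both tests. Of the 120, 63 lay farther from air at the later weeks, a count given without the share over all tested genes. The 120 were chosen on their distance from air at 2 weeks, so this count is a description only. Among the 17 rises, 16 were above air at the later weeks and 6 at 2 weeks, namely Lgals3, Lcn2, Noxo1, Ctss, Ftl1 and Mt1. S100a8, Pf4 and Igf1 were below air at 2 weeks. These values also enter the difference and are not separate evidence of it. The later count was 497 without 7 weeks 20 h and 555 without 13 weeks 20 h, and the 2-week count was 59, 40 and 55 without its 2, 6 and 20 h combination.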

How the data were processed

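The authors deposited log2 ratios of 2-colour PIQOR arrays as 1 table of 11994 rows and 18 samples. Per the labels, smoke-exposed RNA carried Cy5 and control RNA Cy3, with each labelled sample split over 2 arrays. No dye swap is named. That a ratio means smoke over air is taken from the channel labels. The base of the logarithm was read from the values, since 100% of the 257 below -1 match, at the 2 decimals given, the log2 of some 2-decimal ratio, and 10.1% match its natural log. Normalization, scanner and background correction are not given in the sources, and intensities were not used. Of all cells 12.9% are empty. The 2 spots of a probe were merged (5997 pairs, 90791 values equal within 0.005, 1 different, 6377 present in 1 spot). Probes of a gene were averaged (114 of 4616 genes have several), and symbols are those of the table, 9614 of 9658 matched to the rat gene table.

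Genes with both doses in at least 6 combinations, at least 2 of them at 2 weeks and at least 3 later, were tested two-sided with limma 3.58.1 (lmFit and eBayes) in R 4.3.3, with hours as a factor and Benjamini-Hochberg adjustment. Missing values were not imputed. Weeks were also fitted as 3 levels, dose dependence on the 9 high-minus-low differences, and hours dependence by an F test. The fit of later weeks minus 2 weeks was tested on simulated data. Python 3.11.15, numpy 2.4.6, pandas 2.3.3 and matplotlib 3.10.9 read the table and drew the figures.

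The named genes are up to 15 rises and 15 falls past the threshold with 1 sign at all 3 hours, filled to 10 by unadjusted p, and up to 4 genes that passed, or else 2, of each of 32 lists. Cyp1a1, Aldh3a1, Nqo1, Lcn2, C3, Cxcl1, Spp1, S100a9, Mmp12, Spon2, Scgb1a1 and Sftpc were to be named where tested. All 17 rises are described. Of the genes filled in by unadjusted p, 1 is not reported here. Members, lists and tests were chosen with earlier results of these data known, and some lists share genes. Promoters come from RefSeq. Alternatives were other scalings, single doses, all samples with the combination as a random block, left-out durations and combinations, other filters and other prior settings.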

Additional observations from a re-analysis of the deposited data

Results flagged for a closer look

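Among the 73 named genes, 2 had 1 later combination far from the other 5 by Dixon's test, and chance marks about 1 in 20 groups. For Ctss the 7-week 20 h value was 0.53, below the others at 0.73 to 0.80. For Zmynd11 the 7-week 2 h value was 0.395, above the others at -0.20 to 0.01.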

How the results depend on the processing

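The count of 18 genes for later minus 2 weeks was 18 with centred samples, 20 with genes present in all samples, 12 with each probe on its own, 10 with samples scaled to a common spread, 6 with quantile normalization, 0 at the low dose alone (345 genes at an unadjusted p under 0.05 in limma) and 3 at the high dose alone. It was 30 over all 18 samples with the combination as a random block (17 of the 18 among them), 2 without a covariate, 5 without 13 weeks, 5 without 7 weeks, 1 with no minimum of values (Lgals3), 1 with the trended and robust prior (Pf4) and 9 when a 1.5-fold difference was also required. Leaving out 1 combination gave 0 to 20. The cause of these shifts was not tested, except that fewer samples enter the single-dose, single-duration and left-out fits. Of 378 values of the 18 genes under alternatives, 159 kept the call, 219 missed the threshold and 0 changed sign. Of 1140 values of the other 55 named genes, 12 passed the threshold and 11 changed sign. The alternatives for the next counts were partly chosen after seeing the data (7 and 13 weeks, hours and air). With scaled samples 7 minus 2 weeks had 2 genes (0 to 8 with a combination left out), 13 minus 2 weeks 3 (2 to 11), hours dependence 5 (0 to 2) and air at 2 weeks 213 (40 to 145). For air at the later weeks scaling gave 728 and left-out combinations 497 to 859. Left-out combinations gave 0 to 2 for 13 minus 7 weeks and 0 to 1 for dose dependence. For hours, the fits without a 2-week combination could not be made. Signs turned for C3 (scaled -0.20, quantile -0.19, low dose -0.26, without 7 weeks -0.01, a combination left out -0.01 to 0.17), Cxcl1 (quantile -0.062), Spon2 (high dose -0.06, without 13 weeks -0.052) and Nqo1 (without 13 weeks 0.047, a combination left out -0.12 to 0.076). The labels carry no replicate numbers to pair samples by, since each condition has 1 sample. The doses were paired within their shared air pool in the dose dependence and in the random-block fit. Signal over background is unknown, so what it limits cannot be given.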
